A study of Mus musculus with 12 samples.

Results

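The livers of female mice whose maternal and paternal grandmothers lacked Khdc3 (WTMM, 4 mice) were compared with those of female mice with wild-type ancestors alone (WT, 4 mice). The comparison took 8 of the 12 libraries of the study and was made over the 14473 of 25069 genes whose mean normalized count, over all 12 libraries, reached 10. A further 4 libraries came from female descendants of Khdc3-null grandfathers on both sides (WTPP), and they are used here to show where a WTMM value also differed from the other lineage. All 12 mice were themselves wild type at Khdc3, so that no animal in any group carried the null allele by label, and the groups differ in ancestry. Each library is a mouse with its own number within its group, and the labels give no age, strain, litter, diet, collection time or sequencing batch. The p-values therefore measure the spread between these mice, whatever shared origin they may have. The labels call the tissue liver and the cell type hepatocyte, while transcripts of leukocytes, endothelial and stellate cells were read in every library and pancreatic acinar transcripts in every WT library. The samples are thus treated as whole liver.

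Khdc3 encodes a protein of the subcortical maternal complex, an assembly of the oocyte and early embryo, and mice without it have been studied for effects on oocytes and on their progeny. The liver stores and releases glucose and lipid between meals, makes most plasma proteins and clears hormones and drugs, and many of its genes follow glucocorticoids, growth hormone, thyroid hormone and feeding. It also holds resident macrophages, the Kupffer cells, together with lymphocytes that present and recognise antigen, so that bulk liver RNA reads both hepatocytes and immune cells. A lower level in bulk tissue cannot tell fewer cells of a type from less RNA per cell.

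Values are normalized counts, meaning reads divided by 1 factor per library, and the depth behind them was 25070718 to 35843972 reads assigned to genes per library. In a principal component analysis of the tested genes the 4 WT libraries lay on one side of the first component, which held 28.1% of the variance, with WT 116 farthest out and WT 117 nearest to the other groups. Each library name ends in S and a running number, which is lower for WT than for WTMM and WTPP, and where a preparation or run followed those running numbers it cannot be told apart from ancestry. Differences were tested with limma on log2(normalized count + 1), and a gene was called where its adjusted p (Benjamini-Hochberg over the 14473 genes) fell under 0.05. Fold changes are on that same scale, which understates the change of genes with few reads. Khdc3 itself had 7 reads in the 12 libraries together, 3 of them in WTMM 8 and 1 in WT 116, which is too few to test or to check the labels with.

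Of the 14473 genes, 643 were higher (4.44%) and 859 lower (5.94%) in WTMM than in WT livers, 10.4% in all, while 3954 had an unadjusted p under 0.05. At least 2-fold differences were called for 141 higher and 310 lower genes, 451 in all or 3.12% of those tested, against 299 without WTMM 7 and 256 without WT 116. The libraries of the 2 groups did not overlap at 2727 genes, 18.8% of those tested, and 1337 of the called genes were among these. The median log2 fold change over all tested genes was 0.00, and the median standard error of a gene was 0.14. The higher genes lay at a median level of 879 normalized counts with a median size of change of 0.53 (log2). The lower genes lay at 212 with a median size of 0.85, and all tested genes at 368. Protein-coding genes made up 574 of the 643 higher and 822 of the 859 lower genes, so that 10.7% and 4.31% were of other biotypes, against 12.9% of all tested genes. Antisense transcripts accounted for 14 of the higher genes and 1 of the lower ones, and since the use of strand in counting is not given, their reads cannot be told from those of the genes they overlap. When each WTMM or WT library was left out in turn, 602 genes kept their call in all 8 fits, 241 higher and 361 lower. The number called was 822 without WTMM 7, 838 without WT 116, 842 without WT 118, 893 without WTMM 9 and 913 without WTMM 6.

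**Figure D1:**
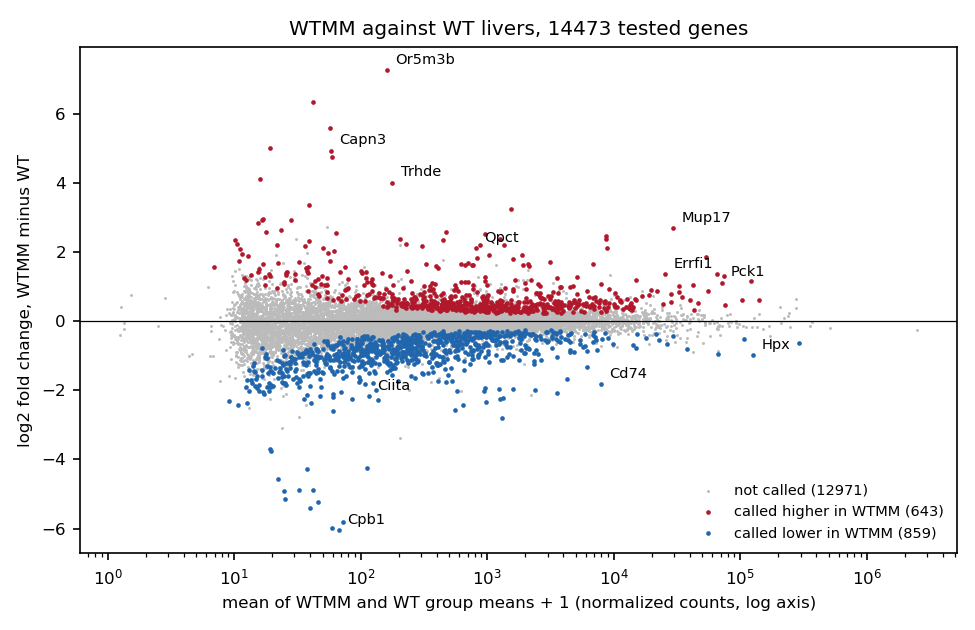
Each point is 1 of the 14473 tested genes, placed by the mean of the WTMM and WT group means (normalized counts plus 1, log axis) and by its log2 fold change, WTMM minus WT. The 643 genes called higher are red and the 859 called lower are blue, with Or5m3b at the top at 7.27 and Cpb1 at the bottom at -6.05.

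Among genes that rose and that had at least 100 normalized counts in WTMM livers, the 12 with the smallest p were Qpct, Errfi1, Palmd, Slc35g1 and Pim3, together with Or5m3b, Rpl30, Itga6, Nxpe2 and Mup5, which are described further on, and Mkx and Capn3. Qpct (ENSMUSG00000024084.7, chromosome 17, 79051906 to 79090378, GRCm38), the cyclase that forms pyroglutamate at the start of peptides, had 1973, 1114, 951 and 1279 normalized counts in WTMM 6, 7, 8 and 9, against 263, 284, 306 and 324 in WT 116, 117, 118 and 120. The lowest WTMM liver stood far above the highest WT liver, and the rise was 4.35-fold (log2 fold change 2.12 ± 0.18 SE, adjusted p = 6.94e-05). Errfi1, a feedback inhibitor of the epidermal growth factor receptor (chromosome 4, 150853919 to 150868892), had 30114, 47009, 39540.4 and 29981 in WTMM and 12523, 15263, 12779.8 and 16194 in WT livers, 2.55-fold higher (adjusted p = 0.000313). Again the groups did not overlap, and WTMM 7 was the highest. Pim3, a serine/threonine kinase (chromosome 15, 88862186 to 88865726), had 2925, 2572, 2762 and 1608 in WTMM livers, the lowest of them WTMM 9, and 580.1, 812, 869 and 577 in WT livers (log2 fold change 1.78 ± 0.21 SE, adjusted p = 0.000553).

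Smaller rises were seen in Palmd and Slc35g1. Palmd, which encodes palmdelphin, averaged 1272 ± 126 in WTMM and 748 ± 58.4 in WT livers (SD, n = 4 each), 1.7-fold higher. Slc35g1, of the solute carrier family 35, averaged 756 ± 34.1 in WTMM and 418 ± 40 in WT livers, 1.81-fold higher (adjusted p = 0.000372 for Palmd and 0.000394 for Slc35g1). None of these 5 differed between WTMM and WTPP livers past the threshold (adjusted p from 0.074 for Qpct to 0.91 for Errfi1). Their WTPP means were 831 for Qpct, 34931 for Errfi1, 1589 for Pim3, 1219 for Palmd and 729 for Slc35g1. The calls of all 5 held whichever library was left out. Mkx, a homeobox gene of tendon, had 518, 564, 479 and 519 in WTMM and 212, 222, 299 and 261 in WT livers. Capn3, a calcium-dependent protease best known from muscle, had 81.7, 118, 56.9 and 192 in WTMM and 0.779, 5.05, 1.04 and 4.68 in WT livers (adjusted p = 0.000311 for Mkx and 0.000338 for Capn3). Mkx also exceeded WTPP, where it averaged 338 (log2 fold change 0.62 ± 0.12 SE, adjusted p = 0.00999), while Capn3 did not pass that test (adjusted p = 0.10).

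Several genes known to respond to glucocorticoid were higher in WTMM livers. Of the 15 tested genes of the glucocorticoid response list, 5 were higher (3 without WTMM 7, WTMM 8 or WT 118) and 2 lower (1 without WTMM 7, 0 without WTMM 6, WTMM 8, WT 116, WT 118 or WT 120), with a median log2 fold change of 0.34, against 0.00 over all tested genes. Its called share in both directions was 46.7%, against 10.4% over all tested genes. Dusp1, a phosphatase that switches off MAP kinases (chromosome 17, 26505590 to 26562128), had 2765, 1831, 1268 and 783 normalized counts in WTMM 6 to 9 and 339, 539, 325 and 428 in WT livers. The WTMM values spread widely, with WTMM 9 the lowest and WTMM 6 the highest, yet none reached down to WT, and the rise was 3.74-fold (adjusted p = 0.00229). Per1, a repressor of the circadian clock that glucocorticoids induce (chromosome 11, 69095217 to 69109960), had 1057, 1284, 1581 and 1237 in WTMM and 313, 368, 369 and 379 in WT livers, 3.58-fold higher (adjusted p = 0.00741). Its WT values were close together, while the WTPP values ran from 319 to 1662.

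Tat, the tyrosine-degrading enzyme long used as a glucocorticoid readout, had 65257, 83711, 84547 and 51150.1 in WTMM and 27292, 52224, 32974 and 44035 in WT livers, with WTMM 9 below WT 117 (log2 fold change 0.88 ± 0.22 SE, adjusted p = 0.0224). Its call was lost without WTMM 7 (0.0674), WTMM 8 (0.0583), WT 116 (0.0674) or WT 118 (0.0651), values in brackets being adjusted p. Sgk1, a kinase, averaged 1216 ± 215 in WTMM and 792 ± 82.1 in WT livers (SD, n = 4 each, adjusted p = 0.0278), and its call was lost without WTMM 6 (0.0814), WTMM 7 (0.0677), WTMM 8 (0.0579) or WT 118 (0.0809). The 2 lower members were Zbtb16 and Lcn2. Zbtb16, a transcription factor that glucocorticoids induce, had 123, 121, 91 and 702 in WTMM and 1511, 494, 1175 and 948 in WT livers, which put WTMM 9 inside the WT range. Lcn2, the siderophore-binding acute-phase protein, had 138, 781, 290 and 534 in WTMM and 3813, 565, 1842 and 2206 in WT livers, where WTMM 7 exceeded WT 117. Both were called lower (adjusted p = 0.0267 and 0.0233), and the call of Zbtb16 was lost without WTMM 6 (0.0699), WTMM 7 (0.0745), WTMM 8 (0.0694), WT 116 (0.0771), WT 118 (0.0695) or WT 120 (0.0522), that of Lcn2 without WTMM 6 (0.0635), WTMM 8 (0.0541), WT 116 (0.0713), WT 118 (0.0581) or WT 120 (0.0547). Fkbp5, the textbook glucocorticoid target, was not called, at 2981 ± 741 in WTMM and 2407 ± 772 in WT livers (log2 fold change 0.34 ± 0.26 SE, adjusted p = 0.434). Errfi1, Dusp1 and Per1, 3 of the list's called genes, kept their call in all 8 fits that left out 1 library.

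Cebpb and Noct were higher too. Cebpb, a transcription factor of the fasting and acute-phase liver (chromosome 2, 167688915 to 167690418), had 1249.6, 1423, 1325 and 688 normalized counts in WTMM and 351, 293, 448 and 396 in WT livers, 3.06-fold higher (adjusted p = 0.00122). Noct, the rhythmic enzyme nocturnin (chromosome 3, 51224447 to 51251644), had 1736, 2517, 2280.1 and 1741 in WTMM and 232, 511, 231 and 853 in WT livers, 5.21-fold higher (adjusted p = 0.00718), with WT 120 the highest of an uneven WT group. Gadd45g, a growth-arrest gene, had 397, 1944, 691 and 294 in WTMM and 236, 98, 68.9 and 71.8 in WT livers (log2 fold change 2.59 ± 0.59 SE, adjusted p = 0.0152), the WTMM values spanning a wider range than the gap to WT. Among the other clock genes there was no call: of the 6 tested activators and ROR-arm genes and the 12 repressors and REV-ERB-arm genes, Per1 alone passed. None of Dusp1, Per1, Cebpb, Noct and Gadd45g passed the test against WTPP (adjusted p = 0.636, 0.447, 0.341, 0.525 and 0.944).

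**Figure D2:**
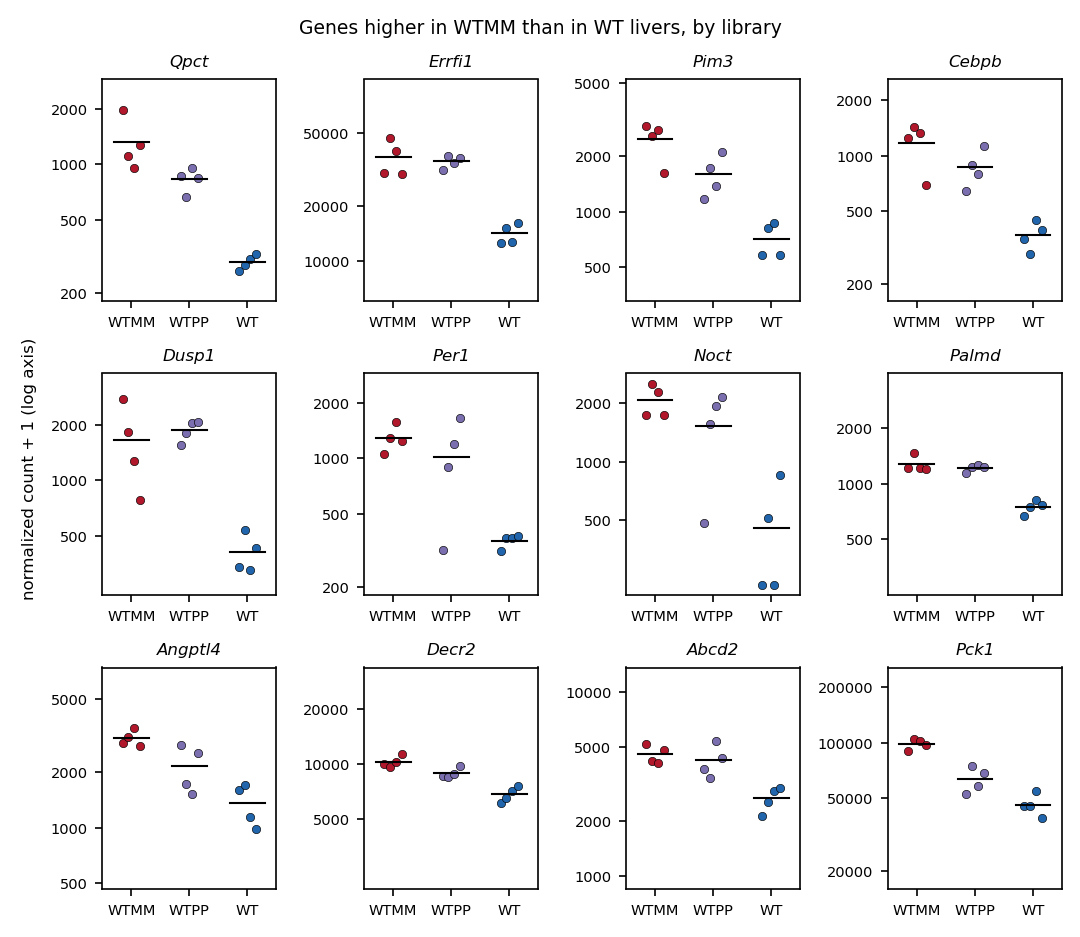
Normalized counts plus 1 (log axis) of 12 genes called higher in WTMM than in WT livers, with WTMM, WTPP and WT libraries from left to right, 1 point per library and a bar at the group mean. For each of the 12 genes the WTMM points lie above every WT point, while WTPP points overlap those of WTMM (Errfi1, Palmd), lie below all of them (Pck1) or spread over the range of both groups (Per1).

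The promoter windows of 4 of the genes that moved are shown because they carry the letters that cyclic AMP, clock and class II regulators are known to bind. They are RefSeq windows of 300 bases on GRCm38.p6, from 250 before to 50 after a listed start, written in the direction of the gene. Capitals mark letters searched on either strand, namely TGACG (the core of the cyclic AMP response element), CACGTG (the E-box) and CCAAT (the box bound by NF-Y), and adjoining matches run together. The window of Dusp1 is chr17:26508423-26508722 on the minus strand, that of Errfi1 the downstream of its 2 listed starts at chr4:150854820-150855119 on the plus strand. Per1 is the upstream of its 2 at chr11:69098699-69098998 on the plus strand. The window of H2-Aa, a class II gene that fell, is chr17:34287774-34288073 on the minus strand.
Dusp1: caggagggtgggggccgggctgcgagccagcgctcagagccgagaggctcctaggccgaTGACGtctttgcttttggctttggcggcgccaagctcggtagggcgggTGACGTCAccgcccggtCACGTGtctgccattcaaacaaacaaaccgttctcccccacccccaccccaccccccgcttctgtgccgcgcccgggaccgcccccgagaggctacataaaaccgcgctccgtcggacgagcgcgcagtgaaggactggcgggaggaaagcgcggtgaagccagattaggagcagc
Errfi1: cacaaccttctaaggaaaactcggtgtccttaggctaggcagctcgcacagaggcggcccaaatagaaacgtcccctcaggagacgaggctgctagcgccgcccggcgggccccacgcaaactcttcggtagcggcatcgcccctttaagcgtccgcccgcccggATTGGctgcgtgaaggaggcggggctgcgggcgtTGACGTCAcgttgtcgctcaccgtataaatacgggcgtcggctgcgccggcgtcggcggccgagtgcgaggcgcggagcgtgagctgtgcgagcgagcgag
Per1: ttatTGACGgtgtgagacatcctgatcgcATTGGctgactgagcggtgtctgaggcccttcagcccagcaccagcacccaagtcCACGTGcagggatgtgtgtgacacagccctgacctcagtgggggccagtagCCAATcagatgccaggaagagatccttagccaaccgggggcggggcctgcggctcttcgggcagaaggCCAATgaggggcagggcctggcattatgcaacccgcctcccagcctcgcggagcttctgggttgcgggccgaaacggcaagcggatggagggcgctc
H2-Aa: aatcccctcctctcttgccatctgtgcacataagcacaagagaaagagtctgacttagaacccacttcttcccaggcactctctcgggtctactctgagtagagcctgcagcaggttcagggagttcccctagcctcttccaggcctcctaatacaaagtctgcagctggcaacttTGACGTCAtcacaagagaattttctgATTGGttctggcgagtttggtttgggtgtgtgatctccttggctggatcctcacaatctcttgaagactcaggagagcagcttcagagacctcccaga
The full palindrome TGACGTCA stands once in each of the Dusp1, Errfi1 and H2-Aa windows, and in 1.79% of the 32851 RefSeq promoter windows of mouse. By gene, with any listed start counted, it was in 21 of 494 higher genes with a window (4.25%), 13 of 646 lower genes (2.01%) and 355 of 10471 tested genes (3.39%). TGACG was in 20.8% of all windows, CACGTG in 7.15% and CCAAT in 37.4%. By gene, TGACG was in 36.03% of higher, 25.23% of lower and 34.24% of tested genes. For CACGTG these shares were 12.55%, 9.288% and 11.49%, and for CCAAT 42.11%, 39.94% and 42.83%. The shares are a description of letters, and the use of these sites in these livers was not measured.

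Several genes known from the fasted liver were also higher. Pck1, which commits carbon to gluconeogenesis (chromosome 2, 173153048 to 173159273), had 90130.3, 105116, 102131 and 97021 normalized counts in WTMM and 44957, 44989, 54689 and 38736 in WT livers, and it rose 2.16-fold (adjusted p = 0.000729). The WTMM livers lay close together and above all WTPP livers, at 52703 to 74343, and the difference from WTPP was called as well (log2 fold change 0.65 ± 0.14 SE, adjusted p = 0.0218). Of the gluconeogenesis list 3 of 12 tested genes were higher (1 without WTMM 6, WTMM 7, WTMM 8, WT 116 or WT 118) and 0 lower. This is a called share of 25%, against 10.4% over all tested genes. In the fits without 1 of those libraries, 5.68% to 7.88% of all tested genes were called. The median of that list was 0.13, 4 of its log2 fold changes were negative, and Pck1 alone kept its call in all 8 fits. In the list of ketogenesis and fasting hormones, 6 of 12 tested genes were higher (3 without WTMM 6 or WTMM 9, 2 without WT 116) and 0 lower, all 12 log2 fold changes were positive, and their median was 0.45. There the called share was 50%, beside the same 10.4%. Angptl4, the secreted inhibitor of lipoprotein lipase (chromosome 17, 33773750 to 33781830), had 2891, 3125, 3466 and 2772 in WTMM and 1604, 1707, 1151 and 991 in WT livers (log2 fold change 1.20 ± 0.20 SE, adjusted p = 0.00406).

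Cpt1a, which admits fatty acids to mitochondria, averaged 10857 ± 1596 in WTMM and 7532 ± 1116 in WT livers (SD, n = 4 each, adjusted p = 0.0171). Bdh1, which interconverts the ketone bodies, averaged 15763 ± 2952 in WTMM and 11163 ± 657 in WT livers (SD, n = 4 each, adjusted p = 0.0212). These smaller rises did not hold in every fit. Cpt1a missed the threshold without WT 116 (adjusted p = 0.0512) and Bdh1 without WTMM 6 (0.0586) or 9 (0.0516). Klb, the coreceptor of FGF21, missed it without WTMM 6 (0.0691), WTMM 7 (0.0762), WT 116 (0.0657) or WT 120 (0.0637). Acat1, a mitochondrial thiolase, missed it without WTMM 6 (0.0636), WTMM 8 (0.0678), WTMM 9 (0.0993), WT 116 (0.0857), WT 117 (0.0689) or WT 120 (0.0662). Of the 6 called members, Angptl4 alone kept its call in all 8 fits.

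Peroxisomal genes followed the same direction, with 5 of 16 higher (3 without WTMM 8 or WT 116), 0 lower and a median log2 fold change of 0.28. Their called share was 31.25%, against 10.4% over all tested genes. Decr2, which handles unsaturated fatty acids in the peroxisome (chromosome 17, 26081208 to 26090337), had 9974, 9668, 10221 and 11350.4 in WTMM and 6139, 6548, 7176 and 7579.6 in WT livers (1.5-fold, adjusted p = 0.00223). Abcd2, a peroxisomal importer of very long fatty acids, had 5210, 4183, 4118 and 4797 in WTMM and 2119.6, 2517, 2901 and 3010.5 in WT livers (1.74-fold, adjusted p = 0.00546). Pex11a, which promotes division of peroxisomes, had 3165, 2782, 3325 and 3612 in WTMM and 2067, 2158, 1730.1 and 1729 in WT livers, a called difference (adjusted p = 0.00595). It was the 1 member that also differed from WTPP (adjusted p = 0.0332). The groups did not overlap for any of these 3, and their calls held in all 8 fits. Abcd3 and Hsd17b4 were called at 1.34-fold and 1.28-fold, and missed the threshold without WT 116 (adjusted p = 0.0615 and 0.082), without WTMM 8 (0.06 and 0.0563) and, for Hsd17b4, without WTMM 7 (0.0585) or 9 (0.0812).

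Thyroid hormone responsive genes had 3 of 11 called higher (2 without WT 116 or WT 118) and 0 lower, with a median of 0.23. The called share was 27.3%, against 10.4% over all tested genes. Dio1, the deiodinase that activates and clears thyroid hormone (chromosome 4, 107291465 to 107307169), had 12143, 11680.2, 10217 and 14362 normalized counts in WTMM and 4757, 6991, 6334 and 7566 in WT livers, 1.9-fold higher (log2 fold change 0.93 ± 0.15 SE, adjusted p = 0.00269). WTPP livers lay with WT at 5768 to 7879, and the difference from them was called (adjusted p = 0.00735). Trhde, which degrades thyrotropin-releasing hormone, had 399.7, 498, 254 and 171 in WTMM, 34, 15, 29.9 and 10 in WTPP 2, 3, 6 and 7, and 3.11, 40.4, 28.2 and 25 in WT livers. Both comparisons of Trhde were called (adjusted p = 0.00229 against WT and 0.00418 against WTPP). Me1, malic enzyme, was called at 1.55-fold and missed the threshold without WT 116 (0.0555) or WT 118 (0.0568). In the glycolysis and glucose entry list 2 of 12 tested genes were higher (1 without WTMM 6, WT 116 or WT 118) and 1 lower (0 without WT 116), with a median of -0.10. The called share there was 25%, beside the same 10.4%. Pfkfb3, which makes the activator of glycolysis fructose 2,6-bisphosphate, had 316, 745, 600.4 and 718 in WTMM and 245, 114, 212 and 198 in WT livers, with WTMM 6 the lowest of its group and still above WT (adjusted p = 0.0128). The other higher one, Mlxipl, the transcription factor ChREBP, had 7743, 6234, 6418 and 6055 in WTMM and 3935, 5496, 4223 and 5314 in WT livers (adjusted p = 0.0234), and its call was lost without WTMM 6 (0.07), WT 116 (0.0702) or WT 118 (0.0714). Hk2, a hexokinase, was lower, with 22.4, 27.3, 22.7 and 29.6 in WTMM and 88, 45.5, 60.6 and 49.9 in WT livers (log2 fold change -1.19 ± 0.27 SE, adjusted p = 0.0164, 0.0518 without WT 116).

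The largest absolute differences were in abundant transcripts of the liver. Among genes that rose these included Pck1, Mup3, Mup6, Mup17, Mup9, Tat and Fabp1. Mup3, a major urinary protein (chromosome 4, 62083476 to 62087342), had 97495, 90534, 107435 and 82329.9 normalized counts in WTMM and 29957, 33025, 38561 and 46892 in WT livers (2.57-fold, adjusted p = 0.000817). Mup6, Mup9 and Mup17 were 2.24-fold, 3.61-fold and 6.44-fold higher. Mup genes are nearly identical, so that the division of reads among them is uncertain. Each of these 4 also exceeded WTPP (adjusted p = 0.027, 0.00722, 0.00944 and 0.00238). Mup5, a less abundant member of the family, had 4458, 5426, 4773 and 5281 in WTMM and 2882, 2406, 2397 and 2344 in WT livers (log2 fold change 0.99 ± 0.09 SE, adjusted p = 0.000105). Mup5 exceeded WTPP as well (adjusted p = 0.00131). Fabp1, the fatty acid carrier of hepatocytes, had 146115, 160608, 173902 and 207211 in WTMM and 117916, 97409.8, 116584 and 114595 in WT livers (adjusted p = 0.0401), and it missed the threshold without WTMM 6 (0.0506), WTMM 7 (0.0726), WTMM 8 (0.0765), WTMM 9 (0.104), WT 116 (0.0718), WT 117 (0.0655), WT 118 (0.0735) or WT 120 (0.0648).

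Among genes that fell, the largest absolute differences were in Cd74, Hpx, Hp, Trf, Cyp2c29, Itih3, C3 and Cps1, most of them secreted plasma proteins. The calls of Cyp2c29 and Itih3 were lost when some libraries were left out, that of Cyp2c29 without WTMM 7 (0.0625), WTMM 9 (0.0645) or WT 118 (0.0647), that of Itih3 without WTMM 6 (0.0733), WTMM 8 (0.0728), WT 116 (0.0711), WT 117 (0.0513) or WT 118 (0.0792). Hpx, hemopexin, which binds free heme (chromosome 7, 105591613 to 105600137), had 85424, 84960.3, 72838 and 94084 in WTMM and 240064, 132697, 156905 and 149243 in WT livers, where WT 116 stood highest, and fell 1.97-fold (log2 fold change -0.98 ± 0.17 SE, adjusted p = 0.00486). It belongs to an iron and heme list in which 6 of 21 tested genes were lower (3 without WTMM 6 or WT 116) and 1 higher, with a median log2 fold change of -0.23. That list had 33.3% called, against 10.4% over all tested genes. Tfrc, the receptor for iron-loaded transferrin, had 584, 539, 680 and 646 in WTMM and 1727, 819, 1713 and 1488 in WT livers (adjusted p = 0.00666). Hmox1, which degrades heme, had 877, 627, 1443 and 864 in WTMM and 2440.5, 1568, 1784 and 1790.4 in WT livers (adjusted p = 0.00865), with WTMM 8 nearest to WT. Smad7, the inhibitory SMAD that opposes hepcidin induction, was the 1 member that rose, at 579 ± 148 in WTMM and 319.6 ± 39.1 in WT livers (SD, n = 4 each, adjusted p = 0.0145). These 4 calls held in all 8 fits. WTPP means were 79188 for Hpx, 600 for Tfrc, 817 for Hmox1 and 854 for Smad7. None of these genes passed the test of WTMM against WTPP (adjusted p from 0.11 for Smad7 to 0.924 for Tfrc).

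Hp, haptoglobin, and Trf, transferrin, were called as 1.91-fold and 1.36-fold lower (adjusted p = 0.0196 and 0.025) and lost the call without WTMM 6 (0.0508 and 0.0599) or WT 116 (0.0555 and 0.0725), Hp also without WTMM 8 (0.0529) and Trf without WTMM 9 (0.0736). C3, the central complement protein, had 224335, 243511, 223129.8 and 220880.4 in WTMM livers, within a narrow band, and 384556, 389221, 362354 and 275347 in WT livers (adjusted p = 0.0336). Its call was lost without WTMM 6 (0.0781), WTMM 7 (0.0611), WTMM 8 (0.0687), WTMM 9 (0.0711), WT 116 (0.0857) or WT 118 (0.0753), and with the 8 libraries fitted alone (0.0746). In the complement list 7 of 26 tested genes were lower (4 without WTMM 6, WTMM 7, WTMM 8, WT 116 or WT 118) and 0 higher (median -0.14), and the 4 that kept the call in all 8 fits were Cfp, C1qa, C1qb and C1qc. Those 4 are made largely by macrophages and other myeloid cells rather than by hepatocytes. The complement list had 26.9% called, against 10.4% over all tested genes. Cps1, the first enzyme of the urea cycle, was called lower at 1.44-fold (adjusted p = 0.0494), a call that was lost without WTMM 6 (0.115), WTMM 8 (0.0713), WTMM 9 (0.13), WT 117 (0.0748), WT 118 (0.0948) or WT 120 (0.0954), and also with a pseudocount of 0.1 (0.0503) or with the 8 libraries fitted alone (0.0787).

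Enzymes of conjugation moved in both directions. Glucuronosyltransferases, which attach glucuronic acid to hormones, bile pigments and drugs, had 5 of 18 higher and 0 lower (median 0.25), and 4 kept the call in all 8 fits. Their called share was 27.8%, against 10.4% over all tested genes. Ugt2b5 had 19675, 16845, 16876 and 17913 in WTMM and 12101, 9374, 11695 and 12813 in WT livers (adjusted p = 0.00277). Ugt2b37 had 1419, 4946, 1906 and 3790 in WTMM and 897, 399, 716 and 943 in WT livers (adjusted p = 0.00533). Ugt2b1 had 19745, 28776, 21367 and 25195 in WTMM and 14373, 11970, 13619 and 16122 in WT livers (adjusted p = 0.00542). These neighbours on chromosome 5 are alike in sequence, which leaves the split of their reads uncertain. Ugt2b37 and Ugt2b1 also exceeded WTPP (adjusted p = 0.00131 and 0.0114), as did Ugt2b38 (0.0408).

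Sulfotransferases, which attach sulfate to steroids and bile acids, had 6 of 17 lower (3 without WTMM 9, WT 117, WT 118 or WT 120, 2 without WT 116) and 1 higher (median -0.47). Here the called share was 41.2%, against 10.4% over all tested genes. Sult2a1 (chromosome 7, 13796246 to 13837409) had 608, 576, 705 and 231 in WTMM and 2180.4, 2395, 1176 and 2121 in WT livers, 3.88-fold lower (adjusted p = 0.00836). WTMM 9 was the lowest library, as it was for Sult2a5 at 249, 238, 296 and 73.9 in WTMM and 501, 615, 477 and 530.5 in WT livers (adjusted p = 0.0198). Sult2a8, of the same cluster on chromosome 7, moved the other way, with 25872, 28676, 28006 and 28628 in WTMM and 16488, 9336, 15920.4 and 22233 in WT livers (adjusted p = 0.014). The Sult2a genes are near copies of each other, so how reads were divided among them is uncertain. Sult2a1, Sult2a5 and Sult2a8 kept their call in all 8 fits. Cyp2b10, the marker of the xenobiotic receptor CAR, had 798, 383, 805 and 131 in WTMM and 1051, 2608, 2075 and 2808 in WT livers, 4.7-fold lower (adjusted p = 0.014). The gene of CAR itself, Nr1i3, was higher, with 10318, 7366, 8769 and 8719 in WTMM and 5048, 6393, 4994 and 5124 in WT livers (adjusted p = 0.00229).

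WTMM livers were also tested directly against WTPP livers, a comparison that shares the WTMM libraries with the one above and that called 603 genes, 4.17% of those tested. Several of the genes with the smallest p against WT stood apart from WTPP as well. Or5m3b, an olfactory receptor gene (chromosome 2, 86020633 to 86045171), had 334, 205, 233 and 514 normalized counts in WTMM livers, 3.09, 0, 0 and 0 in WTPP livers and 0.779, 1.01, 3.13 and 0 in WT livers. Its neighbour Or5m9 was read in every WTMM library, with 323 reads in all, and had 0 reads in the WTPP and WT libraries, at least 123-fold higher in WTMM than in WT with a floor of 3 reads over the WT group. Or5m3b and Or5m9 reached the mean needed for testing through their WTMM reads. A higher call against either group was thus close to fixed for them by the filter, and their values are a description. The pair is alike in sequence, so that how the reads fall between them is uncertain.

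Rpl30, a protein of the large ribosomal subunit with processed copies elsewhere in the genome (chromosome 15, 34440505 to 34443640), had 1880, 2498, 2455 and 2352 in WTMM, 852, 892, 763 and 1030.4 in WTPP and 1110.4, 939, 969 and 974 in WT livers. The WTMM livers stood apart from both groups (log2 fold change 1.20 ± 0.11 SE against WT and 1.38 ± 0.11 SE against WTPP, adjusted p = 0.000105 and 1.98e-05). Itga6, a laminin-binding integrin subunit (chromosome 2, 71745616 to 71858416), had 235, 179.5, 231 and 209 in WTMM, 75.3, 57.5, 79.8 and 93.2 in WTPP and 79.4, 71.7, 88.7 and 82.7 in WT livers (adjusted p = 0.000338 against WT and 0.000248 against WTPP). Nxpe2 (chromosome 9, 48318006 to 48353454) had 1180.2, 828, 1155 and 1434 in WTMM, 458, 379.7, 499.9 and 260.3 in WTPP and 359.8, 344, 372 and 393 in WT livers (adjusted p = 0.000464 and 0.000922). In all 3 genes the WTPP and WT livers overlapped and every WTMM liver was above both.

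Steroid metabolism held a further such gene. Hsd3b5, a steroid reductase of male-type liver, had 889, 2755, 1291 and 1624 in WTMM, 99, 167, 117 and 31.1 in WTPP and 261, 199, 224 and 416 in WT livers (adjusted p = 0.00505 against WT and 0.000329 against WTPP). Against WTPP the test called 7 of 21 steroid and retinoid genes, 9 of 36 phase I genes, 6 of 17 sulfotransferases and 4 of 18 glucuronosyltransferases. It called 0 of 16 Kupffer cell markers, 0 of 19 T and NK cell markers and 0 of 14 B and plasma cell markers. With 4.17% called over all tested genes, 0 calls in lists of this size is near that share. It does not show that those levels were equal.

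**Figure D3:**
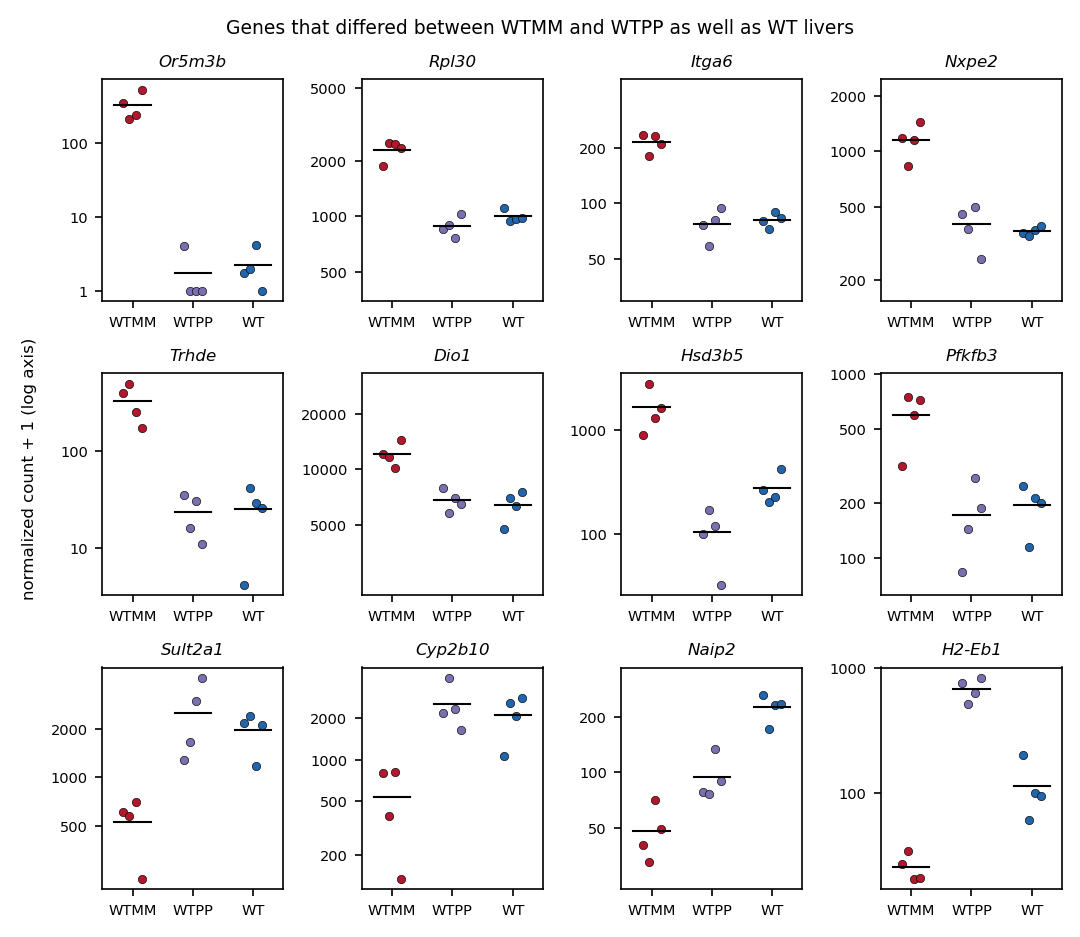
Normalized counts plus 1 (log axis) of 12 genes that were called both between WTMM and WT and between WTMM and WTPP, with WTMM, WTPP and WT libraries from left to right and a bar at the group mean. WTMM points lie above both other groups for the first 8 genes and below them for Sult2a1, Cyp2b10, Naip2 and H2-Eb1, where H2-Eb1 was highest in WTPP at 516 to 832.

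Transcripts of immune cells were lower in WTMM than in WT livers. Over 5 marker lists (Kupffer cells, monocytes and dendritic cells, T and NK cells, B and plasma cells, neutrophils), 38 of 71 tested genes were lower (21 without WTMM 7, 19 without WT 116 and 24 without WT 118) and 0 higher, 68 of the 71 log2 fold changes were negative, and their median was -1.07. The summed normalized counts of the 71 genes were 40416, 36439, 39321 and 43792 in WTMM 6, 7, 8 and 9, 35052, 37653, 43893 and 41498 in WTPP livers, and 80769, 45838, 58902 and 60951 in WT 116, 117, 118 and 120. WT 116 was highest and WT 117 lay near the WTMM livers, so the spread within WT was wide while the WTMM livers lay within a narrow band. Of the 38 called genes, 18 kept their call in all 8 fits. Over all tested genes 5.94% were called lower.

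Kupffer cell markers had 12 of 16 lower (9 without WTMM 7, 10 without WT 116 or WT 118) and 0 higher (median -0.90), 9 of them in all 8 fits. Csf1r, the receptor for macrophage colony-stimulating factor, had 1453, 1331, 1458 and 1336 in WTMM and 4428, 2923, 2989 and 2983 in WT livers (log2 fold change -1.23 ± 0.13 SE, adjusted p = 0.000287). Adgre1, which encodes the macrophage antigen F4/80, had 544, 434, 579 and 605 in WTMM and 1613, 738, 1070.2 and 1183 in WT livers (adjusted p = 0.00452). Marco, a scavenger receptor, had 138, 63.4, 300.2 and 142 in WTMM and 1494, 330.4, 854 and 1101 in WT livers (adjusted p = 0.00595). For none of the 3 did the groups overlap, and WT 117 was each time the lowest WT library. Monocyte and dendritic cell markers had 3 of 16 lower (6 without WT 117, 1 without WTMM 9, 0 without WTMM 7 or WT 116). Of these calls 0 held in all 8 fits, and the called share was 18.75%, against 10.4% over all tested genes. T and NK cell markers had 11 of 19 lower (7 without WTMM 7, 6 without WTMM 9 or WT 118, 5 without WT 116, median -1.31), 5 in all 8 fits. Cd4, the coreceptor of helper T cells, had 23.5, 41.4, 34.1 and 37.5 in WTMM and 143, 83.9, 111 and 96.7 in WT livers (adjusted p = 0.000835). Nkg7, a granule protein of NK and cytotoxic T cells, had 13.4, 13.2, 7.96 and 17.7 in WTMM and 67, 42.4, 44.9 and 47.6 in WT livers (adjusted p = 0.000895).

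Markers of B and plasma cells had 7 of 14 lower (4 without WTMM 9 or WT 118, 3 without WTMM 7 or WT 116, median -1.18), 3 in all 8 fits. Ighm, the heavy chain of immunoglobulin M, had 106, 74.8, 93.3 and 76.9 in WTMM and 382, 192, 243 and 241 in WT livers (adjusted p = 0.000997). Neutrophil markers had 5 of 7 lower (3 without WTMM 9, 2 without WTMM 7 or WT 118, 1 without WT 116), and S100a8, a calcium-binding protein of neutrophils, had 30.2, 16.7, 12.5 and 22.7 in WTMM and 166, 44.5, 114 and 67.9 in WT livers (adjusted p = 0.0097). S100a8 was the 1 neutrophil marker whose call held in all 8 fits. Among chemokines and adhesion molecules 8 of 16 were lower (5 without WTMM 7, WTMM 9 or WT 116, 3 without WT 118), and the call held in all 8 fits for 3. Cx3cl1, the membrane-bound chemokine, had 4.48, 3.52, 3.41 and 5.91 in WTMM and 15.6, 18.2, 21.9 and 18.7 in WT livers (adjusted p = 0.0025). It was lower than in WTPP livers as well (adjusted p = 0.00668). Cxcl1, which draws neutrophils, had 151, 114, 97.8 and 116 in WTMM and 385, 235, 772 and 278 in WT livers (adjusted p = 0.00656).

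In the class II antigen presentation pathway 11 of 14 tested genes were lower and 0 higher, and all 11 kept their call in all 8 fits (median log2 fold change -1.54). Ciita, the transactivator that the class II promoters require (chromosome 16, 10480059 to 10528418), had 38.1, 37.8, 42.1 and 44.4 normalized counts in WTMM and 271, 146, 173 and 170.1 in WT livers. It fell 4.47-fold (adjusted p = 0.000112). H2-Aa, an alpha chain of class II, whose promoter window is printed above, had 1238, 1176, 1043 and 1765 in WTMM and 9443, 3456, 6298 and 4204 in WT livers (4.23-fold lower, adjusted p = 0.000766). Cd74, the invariant chain, had 3207, 3084, 2813 and 4276 in WTMM and 19678, 8287, 13312 and 8527 in WT livers (3.53-fold lower, adjusted p = 0.000766). WTMM libraries were within a narrow range for all 3, and WT 116 was the highest. WTPP means were 60.7 for Ciita, 1945 for H2-Aa and 4660 for Cd74, and none of these differed between WTMM and WTPP past the threshold (adjusted p = 0.167, 0.256 and 0.283). H2-Eb1 was the 1 member called against WTPP, and its WTPP values lay above every WT value, as given at the end. In the class I and immunoproteasome list all 15 log2 fold changes were negative, and 5 were called lower (2 without WTMM 7, WTMM 8, WTMM 9 or WT 116, 1 without WTMM 6 or WT 118). This was 33.3% of the list, against 10.4% called over all tested genes. Tap1 alone, the peptide transporter, kept its call in all 8 fits, at 458 ± 22.9 in WTMM and 798 ± 191 in WT livers (SD, n = 4 each, adjusted p = 0.00409).

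The 12 genes with the smallest p that fell, of those with at least 100 normalized counts in WT livers, included Ciita, H2-Aa, Cd74, Csf1r and the acinar gene Cpb1, and the others are given next. Laptm5, a lysosomal protein of blood cells (chromosome 4, 130913125 to 130936141), had 438, 389.8, 425 and 462 in WTMM and 1254, 1081, 986 and 805 in WT livers (2.38-fold lower, adjusted p = 0.000123). Naip2, a sensor of bacterial proteins in the inflammasome, had 39.2, 31.7, 69.4 and 48.3 in WTMM, 77.3, 75.2, 133 and 88.6 in WTPP and 261, 171, 232 and 232 in WT livers. WTMM was called lower than both (adjusted p = 0.000287 against WT and 0.0348 against WTPP). Naip2 has close copies beside it on chromosome 13 that may share its reads. Pld4, a nuclease of immune cells, averaged 279 ± 28.9 in WTMM and 637 ± 130.4 in WT livers (SD, n = 4 each, adjusted p = 0.000338).

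Genes of the cytoskeleton and the membrane made up most of the rest. Krt18, the keratin of hepatocytes and bile duct cells (chromosome 15, 102028180 to 102032027), had 2815, 3477, 3314 and 2999 in WTMM and 5859, 5786, 5955 and 5634 in WT livers (log2 fold change -0.89 ± 0.10 SE, adjusted p = 0.000422). Flna, filamin A, which crosslinks actin, averaged 628 ± 62.5 in WTMM and 1157 ± 154 in WT livers (SD, n = 4 each, adjusted p = 0.000551). Iqgap1, a scaffold of the cell cortex, averaged 324 ± 22.2 in WTMM and 614 ± 66.6 in WT livers (SD, n = 4 each, adjusted p = 0.000313). Tmem176a, a membrane protein, averaged 4440.1 ± 69.8 in WTMM and 7342 ± 656 in WT livers (adjusted p = 0.000338). For each of these the groups did not overlap and the call held in all 8 fits.

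Pancreatic acinar transcripts were read in WT livers and hardly in WTMM livers. Of 22 listed acinar markers 14 were tested, of which 11 were lower and 0 higher, 10 of them in all 8 fits. Markers with 0 reads in WTMM livers, such as Clps, Cpb1, Pnlip and Cel, reached the tested mean of 10 through their WT reads. A lower call was thus close to fixed for them by the filter, and the count is a description. The 13 markers other than Cela1 summed to 31.4, 25.5, 30.7 and 39.4 normalized counts in WTMM livers, 20.6, 24.8, 46.6 and 43.8 in WTPP livers and 2666, 123, 397 and 746 in WT 116, 117, 118 and 120. Cpb1, a pancreatic carboxypeptidase, had 0 reads in the 4 WTMM libraries and 407, 15.2, 44.9 and 63.2 normalized counts in WT 116, 117, 118 and 120, at least 193-fold lower in WTMM than in WT with a floor of 3 reads over the WTMM group. Most of that size came from WT 116, without which the bound was 56.2-fold. Clps, colipase, and Pnlip, pancreatic lipase, likewise had 0 reads in WTMM livers, against 124, 18.2, 17.7 and 32.8 of Clps and 297, 7.07, 61.6 and 102 of Pnlip in WT livers. WT 116 was the highest library for each, and WT 117 the lowest for Cpb1 and Pnlip. The WTPP livers had 0 reads of Cpb1 and Clps and 1 of Pnlip. Cela1, an elastase, was not called and was read in every liver, at 1301 to 1715 in WTMM and 1120 to 1678 in WT livers. The same WT libraries were thus the highest and the lowest for acinar and for leukocyte transcripts, and whether either bears on the other differences was not tested. The 12 hepatocyte markers summed to 3209190 to 3732400 in WTMM and 3547990 to 4846210 in WT livers, with 1 of them, Tat, called higher and 2, Trf and Cps1, called lower.

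**Figure D4:**
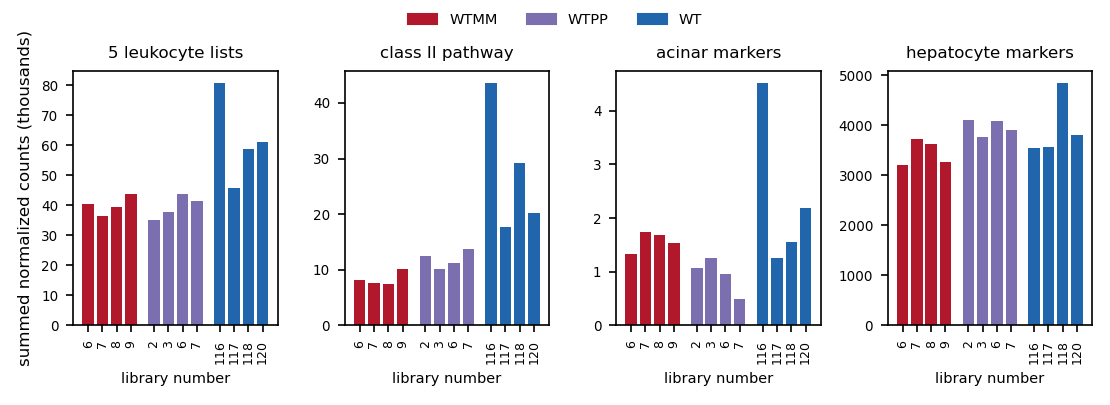
Summed normalized counts of 4 marker sets in each library, with WTMM bars left of WTPP and WT bars. Leukocyte and class II sums are lower in all WTMM than in all WT libraries, with WT 116 the highest bar, the acinar sum includes Cela1, which is read in every liver, and the hepatocyte sums of WTMM and WT overlap.

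In the stellate cell and matrix list 5 of 26 were lower (3 without WTMM 8 or WT 116, 2 without WTMM 9, 1 without WTMM 6, WTMM 7 or WT 118), 24 had negative log2 fold changes (median -0.31). The called share of this list was 19.2%, against 10.4% over all tested genes. Without WTMM 6, WTMM 7 or WT 118, 5.68% to 6.31% of all tested genes were called. Des, desmin, alone kept its call in all 8 fits, with 75, 100.3, 100.1 and 89.7 in WTMM and 171, 192, 146 and 129 in WT livers (adjusted p = 0.0117). Of 19 endothelial markers 2 were lower (1 without WTMM 6, WTMM 7, WTMM 9, WT 116, WT 118 or WT 120), 10.5% against 10.4% over all tested genes, among them Cdh5, the cadherin of endothelial junctions, with 852, 819, 987 and 865 in WTMM and 1406, 1119, 1413 and 1202 in WT livers (adjusted p = 0.00532). In the unfolded protein response list 21 of 23 log2 fold changes were negative (median -0.29), with 2 genes called lower (7 without WT 117, 1 without WTMM 8, 0 without WTMM 6, WTMM 7, WTMM 9, WT 116, WT 118 or WT 120) and 1 higher. That 1 was Herpud1, of endoplasmic reticulum-associated degradation, at 14584, 11873, 15174 and 10767 in WTMM and 8741, 7569, 8774 and 6799 in WT livers (adjusted p = 0.00805). The called share of that list was 13%, near the 10.4% over all tested genes. In the immediate early list 1 of 21 genes was higher, Dusp1, and 2 were lower, Egr1 and Klf6 (5 without WT 117, 1 without WTMM 9, WT 116 or WT 118), with a median of -0.16. The called share there was 14.3%, again near the 10.4% over all tested genes. Klf6, a zinc-finger transcription factor, had 342, 279.8, 271 and 233 in WTMM and 599, 310.2, 561 and 501 in WT livers, WT 117 lying inside the WTMM range (adjusted p = 0.0166), and its call was lost without WTMM 9 (0.0507), WT 116 (0.0531) or WT 118 (0.053). Egr1, an immediate early transcription factor, had 262, 242, 219 and 169 in WTMM and 1397, 279.9, 5389.6 and 2572 in WT livers, with WT 117 close to the WTMM livers and WT 118 far above (log2 fold change -2.79 ± 0.64 SE, adjusted p = 0.0159). Bbc3, the p53 target PUMA, was lower in WTMM than in WT and in WTPP, at 113 ± 31.7 in WTMM, 212 ± 49.7 in WTPP and 231 ± 37.2 in WT livers (SD, n = 4 each, adjusted p = 0.00876 against WT and 0.0304 against WTPP).

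**Figure D5:**
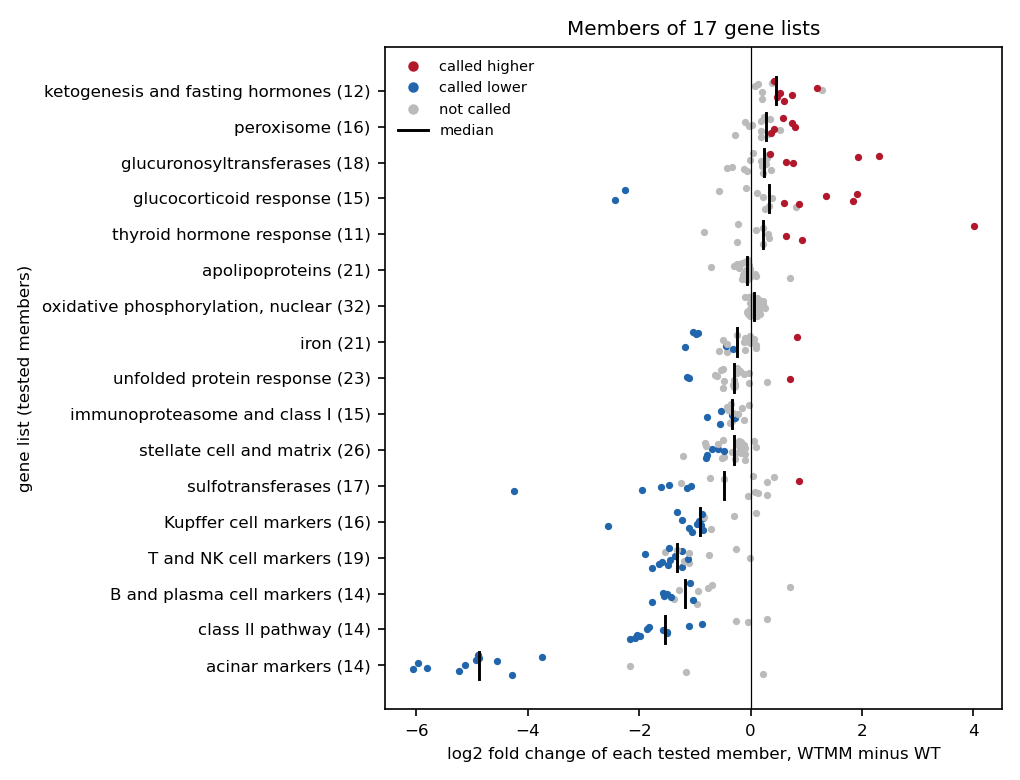
Log2 fold change (WTMM minus WT) of every tested member of 17 gene lists, with the number of tested members in brackets, members called higher in red, called lower in blue, not called in grey, and the list's median as a black bar. Medians run from 0.45 for ketogenesis and fasting hormones to -4.88 for acinar markers, while apolipoproteins and the nuclear genes of oxidative phosphorylation had no called member.

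Of the 58 lists, 49 had a called member, 18 with higher ones alone, 16 with lower ones alone and 15 with both. The 9 with 0 called members covered the activators of the clock, the growth hormone and IGF axis (15 tested), apolipoproteins (21), heat shock (21), the nuclear (32) and mitochondrial (13) genes of oxidative phosphorylation, the proteasome (23), muscle markers (6) and the subcortical maternal complex (2). Their medians lay between -0.08 and 0.18. Of 26 DNA methylation and chromatin genes 2 were higher, Setdb1 and Ehmt1, which methylate histone H3 (1 without WT 120, 0 without WTMM 6, WTMM 7, WTMM 9, WT 116 or WT 118). In the same list 1 was lower, Dnmt1, the maintenance methyltransferase (0 without WTMM 7, WTMM 9 or WT 118). Of 20 genes of the small RNA pathway 1 was higher, Prkra (0 without WTMM 7, WTMM 9, WT 116 or WT 118). Of 33 imprinted genes 1 was higher, Herc3 (0 without WTMM 6, WTMM 7, WT 116, WT 117 or WT 118). None of these 5 calls (0 of 5) held in all 8 fits. These shares, 11.5%, 5% and 3.03%, stand beside 10.4% over all tested genes. Of the subcortical maternal complex, Tle6 and Zbed3 were tested and not called.

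Around Khdc3 itself (chromosome 9, 73101836 to 73104438), 50 genes within 5 Mb on either side were tested, of which 5 were higher and 1 lower, 12% against 10.4% overall. The higher ones numbered 2 without WTMM 7 and 3 without WTMM 6, WT 116 or WT 118. Aqp9 and Anxa2 kept their call in all 8 fits, while 4 higher genes did not. Lipc, hepatic lipase, lost it without WTMM 6 (0.0515) or WT 118 (0.0527), and Fbxo9, an F-box protein, without WTMM 6 (0.0526), WTMM 7 (0.052) or WT 116 (0.0507). Gm16551 lost it without WTMM 7 (0.0564) or WTMM 9 (0.0596), and Gm32511 without WTMM 7 (0.0611), WTMM 8 (0.0572), WT 116 (0.062) or WT 118 (0.054). Gm32511 is annotated antisense to Aqp9 and overlaps it, and as use of strand in counting is not stated, reads in the overlap are uncertain. Aqp9, the glycerol channel that feeds gluconeogenesis, had 11887, 12801, 12348 and 11338 in WTMM and 9235, 10113, 9163 and 8036 in WT livers (log2 fold change 0.41 ± 0.08 SE, adjusted p = 0.0101). Anxa2, a membrane-binding protein, had 311, 346, 392 and 321 in WTMM and 572, 488, 454 and 445 in WT livers (log2 fold change -0.51 ± 0.11 SE, adjusted p = 0.0108). Over chromosomes 1 to 19 and X the share of tested genes called ran from 6.42% on X, where 5 were higher and 24 lower of 452, to 12.5% on chromosome 15. On the mitochondrial chromosome 0 of 21 tested genes were called.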

How the data were processed

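Liver RNA of 12 female mice was sequenced, 1 library per mouse, with a directional library kit, per the labels. The submitters' processing notes name GRCm38, DESeq2, HISAT2 and cutadapt. Their versions and roles, like the gene counter and its use of strand, are not stated there. The authors deposited log2 values, log2(normalized count + 0.1), for 25069 genes. The 4 WT columns have bare numbers as headers and were read as the same unit from their values. After the offset was removed, 100% of values were whole multiples of 1 step per library to within 0.001 of a read, which gave reads and depths of 25070718 to 35843972.

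Genes with a mean normalized count of at least 10 were tested on log2(normalized count + 1) with limma 3.58.1 (R 4.3.3), in 1 fit of 3 group means over 12 libraries with a mean-variance trend and no covariate. P-values were adjusted by Benjamini-Hochberg over the 14473 genes of each contrast with a threshold of 0.05, and every adjusted p comes from this fit or its alternatives. The procedure was tested on simulated data. Coordinates are those of GENCODE M21 on GRCm38 and promoters those of RefSeq on GRCm38.p6. A floor of 3 reads over a group covers counting error only, since PCR copies are not independent molecules.

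The 58 gene lists (1050 of 1069 listed genes found) and the members were chosen with earlier results of these data known, and no list was tested as a set. Genes were named by rule, from called genes other than predicted ones: the 12 higher and 12 lower of smallest p whose higher group averaged at least 100, the 8 higher and 8 lower with the largest difference of means, and from each list up to 4 of smallest p. Those described are mostly ones whose call held with any 1 library left out. Fkbp5, Sgk1, Zbtb16, Lcn2, Klb, Acat1, Hsd17b4, Or5m9, H2-Eb1, Aqp9, Anxa2, Lipc, Fbxo9, Gm16551 and Gm32511 were added after their values were seen. The 17 alternatives were other pseudocounts, filters, normalization, models and library weights, the 8 libraries alone, and each WTMM or WT library left out. Some genes that the rule gives are not reported here.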

Additional observations from a re-analysis of the deposited data

Results flagged for a closer look

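In 13 of the 228 groups of 4 libraries behind the genes named, 1 library stood apart from the other 3, its gap to the nearest of them, as a share of the group's range, being above Dixon's critical value for 4 samples. Chance flags about 1 group in 20.

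WT 116 was the high library in 5 of these, at 2882 normalized counts of Mup5, 4428.5 of Csf1r, 2227.1 of Cfp, 407.26 of Cpb1 and 123.81 of Clps. WT 117 was the high one for Nr1i3 at 6393.2 and the low one for Fabp1 at 97410, and WT 120 was low for Dpys, an enzyme of pyrimidine breakdown, at 10943. Among the WTMM livers, WTMM 7 was high for Palmd at 1460.8 and for C3 at 243511, WTMM 8 for Abcd3 at 17437, and WTMM 9 for Tmem176a at 4544.1 and for Zbtb16 at 701.82. The calls of Mup5, Csf1r, Cfp, Cpb1, Clps, Nr1i3, Dpys, Palmd and Tmem176a held with the library concerned left out, as with each of the others.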

How the results depend on the processing

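Of 112 called genes named, 82 kept their call under every one of the 17 alternatives and 30 lost it under at least 1, and none changed direction. The log2 fold change of Zbed3, not called, ran from -0.20 to 0.029 (without WTMM 8) with 1 library left out. Of the 1502 called genes, 600 kept the call throughout. The higher genes numbered 345 to 728, the lower ones 477 to 1067 and those at least 2-fold 256 to 588 when 1 library was left out. Library weights, which gave WT 117 a weight of 0.287 and WT 118 one of 2.05, raised the counts to 1174 higher and 1481 lower. A minimum mean of 50 left 268 genes at least 2-fold, with fewer genes tested. The cause of the other moves was not tested. Of 985 medians of lists under the alternatives, 971 moved by less than the median standard error of a single gene of the list. WTMM and WT mice share no numbers, so no paired fit of that comparison was possible. For WTMM against WTPP, which share numbers 6 and 7, a fit with the number as a block called 495 genes against 603 without it, and the correlation of same-numbered libraries was -0.13, so the numbers were not taken as pairs. edgeR and TMM scaling were not run. Instead, voom was run on the recovered reads with the authors' scaling and called 622 higher and 799 lower.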

Other observations

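Gm5345, annotated as a processed pseudogene (chromosome 8, 40853828 to 40855027), had 104, 112, 135 and 88.7 normalized counts in WTMM livers, 92.8, 111, 133 and 118 in WTPP livers and 0, 1.01, 3.13 and 2.34 in WT livers. It was read at a like level in both lineages with null ancestors and near 0 in WT. Gm8276 (chromosome 3, 59431537 to 59433348) had 54.9, 122, 149 and 124 in WTMM, 1.03, 1.77, 5.54 and 1.83 in WTPP and 2.34, 1.01, 3.13 and 7.8 in WT livers, so that WTMM stood apart from both. These genes, chosen after their values were seen, may share reads with the genes they resemble.

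H2-Eb1, a class II beta chain on chromosome 17, had 25.8, 33.4, 19.3 and 19.7 in WTMM, 749, 516, 624 and 832 in WTPP and 199, 59.6, 98.1 and 92.8 in WT livers. WTPP livers were highest and WTMM livers lowest for this gene, with no overlap between any of the 3 groups, whereas H2-Aa had 2156, 1529, 1721 and 2371 in WTPP livers, against 1238, 1176, 1043 and 1765 in WTMM livers.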
